A study of Mus musculus with 12 samples.

Results

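A set of 10 genes by which cortical astrocytes are commonly recognised was followed through the OPC and neuron fractions of ctl and dKO mice: Slc1a2, Slc1a3, Glul, Aqp4, Slc4a4, Gja1, Gjb6, Gfap, Sox9 and Aldh1l1. They were chosen by symbol, with earlier results of these data known, and all 10 were found in the OPC table of 30165 genes and in the neuron table of 17918 genes. All 10 also passed the filter of a mean normalized count of at least 10, which left 17364 genes in OPCs and 14352 in neurons. A normalized count is a gene's count scaled to the mean library size of its cell type. In OPC libraries all 10 genes were higher on average in dKO than in ctl, by 1.04-fold for Sox9 to 3.11-fold for Gjb6, and in neuron libraries 3 were higher and 7 lower. None of these differences passed edgeR's test after adjustment over all genes. A second tool, DESeq2, called 4 of the 10 genes in OPCs, where it called 1.72% of all genes, and 0 in neurons. Without OPC dKO replicate 2 it called 1, where it called 3.53% of all genes. In each cell type 1 library held the highest value, for 9 genes in OPCs and for 8 genes in neurons.

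Astrocytes keep the extracellular fluid of the brain constant. They clear glutamate from synapses with the transporters encoded by Slc1a2 and Slc1a3 and turn it into glutamine with glutamine synthetase, the product of Glul. Aqp4 encodes the water channel of their endfeet and Slc4a4 a sodium bicarbonate cotransporter, while the connexins encoded by Gja1 and Gjb6 join astrocytes into a network. Gfap encodes the intermediate filament that marks many astrocytes, Sox9 a transcription factor of glial fate and Aldh1l1 an enzyme of folate metabolism. Several of these genes are not exclusive to astrocytes, since oligodendrocytes contain Glul transcripts and Sox9 is also present in ependymal and choroid plexus cells.

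In the mice labelled dKO the genes of the L-type calcium channels Cav1.2 and Cav1.3 were targeted in OPCs through floxed Cacna1c and Cacna1d alleles and NG2-CreERT2, a tamoxifen-dependent Cre driven from the NG2 locus, which is active in OPCs and also in pericytes. Tamoxifen was injected at 100 mg/kg on postnatal days 7 and 8. The ctl mice carry the genotype label WT, and their Cre and floxed alleles, like the age at which cells were collected, are not given in the sources used here. Cortices of 2 mice were pooled for each of the 3 libraries of a group. OPCs were pulled out with a bead mixture directed at CD140, O4 and NG2, by collecting the cells held on the column. The methods describe no further step directed at astrocytes for this fraction. Neurons were what remained after beads against ACSA-2, an astrocyte surface antigen, CD31, CD11b and O4 had taken out other cells. In such bulk libraries, fewer cells of a type and less RNA per cell cannot be told apart.

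Total counts per library were 14935963 to 19812274 for OPCs, and the neuron libraries held 15052892 to 16344601. The targeted gene Cacna1c had 21.3 to 25.1 CPM (counts divided by library size) in ctl OPCs and 14.4 to 19.2 in dKO OPCs, and Cacna1d had 10.9 to 14.6 in ctl and 5.30 to 13.3 in dKO, counted over the whole gene and not over the deleted exons alone. In neurons Cacna1c had 3.98 to 7.10 CPM in ctl and 3.67 to 10.5 in dKO. Among the OPC libraries dKO replicate 2 stood apart, with Xist at 776 CPM and 4 Y-linked genes at 0, whereas Xist was at most 1.16 CPM in the other OPC libraries. Among the neuron libraries Y-linked counts summed to 386 CPM in ctl replicate 1 and 338 in dKO replicate 1, and to at most 3.70 in the others. In the OPC libraries 12 markers of mature oligodendrocytes summed to 50159 to 86640 CPM and 12 OPC markers to 1658 to 3286. In the neuron libraries 12 neuron markers summed to 614 to 1474 CPM, 12 endothelial markers to 12630 to 28557 and 10 ependymal and choroid plexus markers to 9171 to 46889. Markers of other cell types were thus present in both fractions, and these lists summed higher than the markers of the cell type named. The words OPCs and neurons stand here for the sorted fractions.

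Levels of the astrocyte genes were compared with each other only per length. In ctl OPCs, Glul was far above the rest at 849 ± 97.6 FPKM (SD, n = 3), and it ranked 26 among the 17364 genes tested. Slc1a2 followed at 51.8 ± 18.1 FPKM, and the ctl libraries of both genes were clear of the next gene in the order. Sox9 (24.4 ± 5.90), Slc1a3 (23.7 ± 5.63), Gfap (17.1 ± 2.75), Aqp4 (16.1 ± 4.54) and Gja1 (10.97 ± 2.53 FPKM) came next, and Gjb6, Aldh1l1 and Slc4a4 lay between 6.77 and 6.86 FPKM. Each of these 8 genes overlapped its neighbour in the order. In ctl neurons the order on the TPM scale was a different one. Glul again led at 355 ± 77.3 TPM, followed by Gja1 at 130 ± 26.1 and Slc1a3 at 59.3 ± 47.9. Sox9 (20.3 ± 3.29), Gjb6 (19.2 ± 10.3), Slc1a2 (17.4 ± 17.7), Aqp4 (11.5 ± 9.38), Gfap (9.37 ± 4.57), Aldh1l1 (5.96 ± 2.82) and Slc4a4 (3.91 ± 2.97 TPM) made up a second group whose neighbours overlapped throughout. The ctl libraries were apart between Glul and Gja1 and between Slc1a3 and Sox9. Slc1a2 thus held rank 2 in ctl OPCs and rank 6 in ctl neurons, and Gja1 rank 7 and rank 2. The tables were made in different ways, so these ranks were not tested against each other.

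The neuron table resolves transcripts. Glul and Sox9 had 1 transcript each, and a single transcript carried 99.7% ± 0.33 of the Slc1a3 TPM in ctl and 99.9% ± 0.15 in dKO (SD, n = 3). The leading Gja1 transcript held 89.7% ± 3.17 in ctl and 90.4% ± 5.93 in dKO, and the leading Gfap transcript 74.8% ± 18.6 and 86.4% ± 3.95. For Slc1a2 the leading share was 68.7% ± 8.87 in ctl and 74.0% ± 9.03 in dKO. Differences of this size are within the spread between libraries. Shares of Aqp4, Aldh1l1, Gjb6 and Slc4a4 transcripts varied too much between libraries of 1 group to be compared, for example from 24.8% to 89.9% for the same Aldh1l1 transcript in ctl.

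Since all 10 genes were higher on average in dKO OPCs, the sequences before the start sites are shown for the 4 members that DESeq2 called there. They are the 250 bases upstream of the RefSeq start site in GRCm38.p6, for the connexin genes Gja1 (chr10:56377050-56377299, plus strand) and Gjb6 (chr14:57133612-57133861, minus strand), the filament gene Gfap (chr11:102897201-102897450, minus strand) and the glutamate transporter gene Slc1a3 (chr15:8710808-8711057, minus strand). Each ends at the base before the annotated gene and is written 5′ to 3′ in the direction of transcription. Capitals mark matches to the motifs named after the sequences.

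Gja1: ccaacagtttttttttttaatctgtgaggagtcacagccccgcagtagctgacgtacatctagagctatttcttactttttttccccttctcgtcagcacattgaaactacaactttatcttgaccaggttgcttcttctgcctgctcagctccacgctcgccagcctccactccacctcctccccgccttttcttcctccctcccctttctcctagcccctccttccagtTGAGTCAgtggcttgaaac
Gjb6: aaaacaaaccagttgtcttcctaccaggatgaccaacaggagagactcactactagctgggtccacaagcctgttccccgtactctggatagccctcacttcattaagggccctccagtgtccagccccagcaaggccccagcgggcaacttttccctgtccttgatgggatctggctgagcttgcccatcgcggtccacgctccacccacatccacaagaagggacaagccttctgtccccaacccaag
Gfap: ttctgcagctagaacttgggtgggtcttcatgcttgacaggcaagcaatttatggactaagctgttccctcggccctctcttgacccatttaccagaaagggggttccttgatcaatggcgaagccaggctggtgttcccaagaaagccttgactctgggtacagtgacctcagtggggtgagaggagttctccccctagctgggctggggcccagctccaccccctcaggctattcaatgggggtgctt
Slc1a3: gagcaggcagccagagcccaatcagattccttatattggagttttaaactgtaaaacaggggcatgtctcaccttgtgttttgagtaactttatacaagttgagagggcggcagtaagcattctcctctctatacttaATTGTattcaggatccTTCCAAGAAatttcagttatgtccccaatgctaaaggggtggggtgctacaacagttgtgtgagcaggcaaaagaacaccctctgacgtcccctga

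Both strands were searched for 4 motifs of factors active in astrocytes: STAT (TTCNNNGAA), AP-1 (TGANTCA), SOX (ACAAT or ATTGT) and the core of an NFI site (TTGGC or GCCAA). Gja1 held an AP-1 match beginning at position -19, counted back from the start site, and Slc1a3 a STAT match at -96 and a SOX match at -112. No match to these letters was found in the windows of Gjb6 and Gfap. Windows were given for 8 of the 10 genes. Outside the 4 shown, Glul and Slc1a2 held the NFI letters, as did both windows of Slc4a4, and 6 of the 9 windows had at least 1 match, where 63.9% of all windows did. Among all 32851 promoter windows of this length, 7.02% held the STAT letters, 6.75% the AP-1 letters, 27.7% the SOX letters and 41.5% the NFI letters.

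In OPCs, the difference between dKO and ctl was largest on the log2 scale for Gjb6, Slc4a4, Slc1a2, Slc1a3 and Gja1, each at least 2.11-fold higher on average, and smallest for Glul and Sox9. The median log2 fold change of the 10 genes was 0.93, against 0.0054 over all genes tested. With edgeR's quasi-likelihood test, 0 of 10 passed an adjusted p of 0.05, where 0.00576% of all genes did, and 7 of 10 had an unadjusted p under 0.05, all higher in dKO, where 11.5% of all genes did in either direction. DESeq2 called 4 of 10, namely Gjb6, Gja1, Gfap and Slc1a3, where it called 1.72% of all genes. In 4 genes every dKO library was above every ctl library (Slc1a3, Gjb6, Gfap and Aldh1l1), a pattern that 7.4% of all genes had. This count was 7 without ctl replicate 3, where 11.9% of all genes had the pattern, and 8 without dKO replicate 1, where 13.1% had it.

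**Figure D1:**
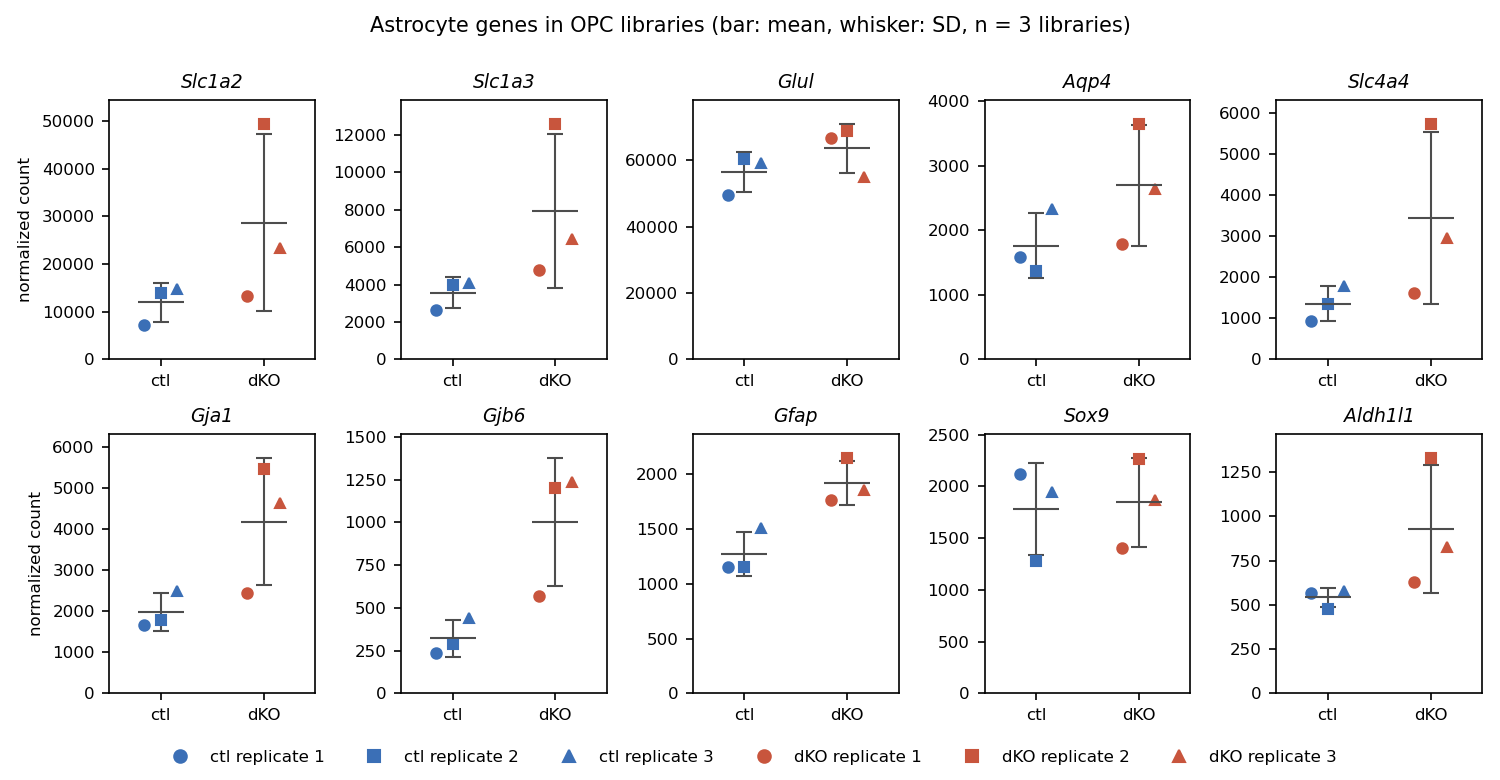
Normalized counts (y axis, from 0) of the 10 astrocyte genes in the 3 ctl and 3 dKO OPC libraries (x axis), with symbols for the replicates, a bar for the mean and whiskers for the SD. The dKO replicate 2 library (red square) is the highest point in 9 of the 10 panels, and the groups are separate for Slc1a3, Gjb6, Gfap and Aldh1l1.

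Of the genes of glutamate handling, Slc1a2 had normalized counts of 7222, 13838 and 14790 in ctl OPCs and of 13342, 49486 and 23299 in dKO OPCs. The dKO replicate 2 value was 2.12 times the next highest, and dKO replicate 1 lay among the ctl libraries. The means were 11950 ± 4122 and 28709 ± 18670 (SD, n = 3), with a log2 fold change of 1.26 ± 0.46 (SE) and an edgeR adjusted p of 0.37. Slc1a3, the other transporter, had 2617, 3963 and 4107 in ctl and 4767, 12613 and 6445 in dKO. All 3 dKO libraries were above all 3 ctl libraries, the nearest values being 4107 and 4767. Its log2 fold change was 1.16 ± 0.34, with an adjusted p of 0.31 by edgeR and 0.038 by DESeq2. Glul differed much less, at 49499, 60444 and 59368 in ctl and 66802, 69039 and 55142 in dKO. Here dKO replicate 3 lay within the ctl range. The log2 fold change of 0.17 ± 0.20 was smaller than its standard error, with an edgeR adjusted p of 0.78.

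The water channel gene Aqp4 had 1585, 1373 and 2325 in ctl OPCs and 1792, 3654 and 2641 in dKO OPCs, and the groups overlapped because dKO replicate 1 was below ctl replicate 3. The log2 fold change was 0.61 ± 0.27 (edgeR adjusted p = 0.44). The bicarbonate cotransporter gene Slc4a4 had 929, 1337 and 1777 in ctl and 1615, 5730 and 2952 in dKO. As for Slc1a2, dKO replicate 2 stood well above the others and dKO replicate 1 among the ctl libraries. The difference on the log2 scale was 1.35 ± 0.42 (edgeR adjusted p = 0.32).

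Both connexin genes were among the clearest. Gjb6 had 234, 292 and 442 in ctl OPCs and 569, 1199 and 1238 in dKO OPCs, so the groups were apart and dKO replicates 2 and 3 were close to each other. Its log2 fold change was 1.64 ± 0.33, with an adjusted p of 0.25 by edgeR and 0.00053 by DESeq2. Gjb6 was the only member that passed edgeR's test under any alternative over the 6 libraries, with an adjusted p of 0.012 without the filter on low counts, a fit in which 87 genes passed, and of 0.021 with the replicate number as a block. Gja1 had 1661, 1779 and 2501 in ctl and 2453, 5460 and 4643 in dKO. The dKO replicate 1 value was just under that of ctl replicate 3. Its log2 fold change was 1.08 ± 0.29, with an adjusted p of 0.29 by edgeR and 0.023 by DESeq2.

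Gfap, the filament gene, had 1155, 1154 and 1506 in ctl OPCs and 1762, 2149 and 1854 in dKO OPCs. The groups were apart and dKO replicate 2 was here only 1.16 times the next library. A log2 fold change of 0.60 ± 0.14 came with an adjusted p of 0.28 by edgeR and 0.030 by DESeq2. Sox9, the transcription factor gene, had 2116, 1279 and 1948 in ctl and 1405, 2265 and 1863 in dKO. The groups covered almost the same range, and the log2 fold change was 0.05 ± 0.22 (edgeR adjusted p = 0.95). Aldh1l1, the folate enzyme gene, had 567, 479 and 580 in ctl and 629, 1330 and 828 in dKO, with all dKO libraries above all ctl libraries. On the log2 scale dKO was higher by 0.78 ± 0.25 (edgeR adjusted p = 0.32).

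How much each value owed to dKO replicate 2 was measured by leaving that library out. The median log2 fold change of the 10 genes was then 0.56, with 9 genes higher and Sox9 at -0.12. Slc1a2 went from 1.26 to 0.62, Slc1a3 from 1.16 to 0.66, Slc4a4 from 1.35 to 0.76, Aldh1l1 from 0.78 to 0.43 and Aqp4 from 0.61 to 0.33. Gjb6 (1.49), Gja1 (0.84) and Gfap (0.51) moved less. Without this library edgeR called 0 members, with 6 at an unadjusted p under 0.05, where 13.3% of all genes had one, and 199 of 17245 genes over the table. DESeq2 then called 1 member, Gjb6 (adjusted p = 0.0011), and 608 genes, so the DESeq2 calls of Gja1, Gfap and Slc1a3 were lost. Summed over the 10 genes, the libraries held 3860, 4908 and 5102 CPM in ctl and 5433, 8733 and 5762 in dKO, with no overlap between groups. Glul alone held 2827 to 3943 CPM of these sums, and over the other 9 genes the libraries held 1033, 1456 and 1712 CPM in ctl and 1618, 4790 and 2613 in dKO, where dKO replicate 1 was below ctl replicate 3.

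Other genes of the same functions were taken from lists written for this purpose, 78 genes in all, every one of which was tested. In OPCs 67 were higher and 11 lower in dKO, with a median log2 fold change of 0.70. By edgeR 0 of 78 passed, with 46 higher and 2 lower at an unadjusted p under 0.05, where 11.5% of all genes had one. DESeq2 called 14 and every dKO library exceeded every ctl library for 29, to be read against the 1.72% and 7.4% of all genes given above. Without dKO replicate 2, 64 of 78 were higher, the median was 0.40, and DESeq2 called 8, where it called 3.53% of all genes in that fit. The list of 30 other astrocyte surface and secreted products held most of this, with 30 of 30 higher, 12 called by DESeq2, 19 without overlap and a median of 1.01. Without dKO replicate 2 it had 29 of 30 higher, 8 called by DESeq2 and a median of 0.59. The secreted protease gene Htra1 had means of 2017 ± 275 in ctl and 3492 ± 290 in dKO (SD, n = 3), with DESeq2 adjusted p = 0.00039 and edgeR adjusted p = 0.23. Cst3, which encodes the protease inhibitor cystatin C and is also abundant in microglia, had 9298 ± 990 and 18495 ± 4606. Grin2c, an NMDA receptor subunit gene, had 215 ± 71.0 and 659 ± 232. Of 12 genes of astrocyte metabolism, 12 were higher and DESeq2 called 2, Lcat, the lecithin cholesterol acyltransferase gene, at 208 ± 11.4 and 365 ± 95.1, and Etnppl, a phospholyase gene, at 282 ± 74.2 and 668 ± 313. With dKO replicate 2 left out, 10 of the 12 were higher, DESeq2 called 0 and the median was 0.44, against 0.74 with it. Of 9 further genes of glutamate and GABA handling, 8 were higher, 4 of them at an unadjusted p under 0.05, beside 11.5% of all genes. Of these 9 genes, 0 were called by either tool. With dKO replicate 2 left out, 1 had an unadjusted p under 0.05, where 13.3% of all genes had one, and the median was 0.18, against 0.58 with it. Of 10 genes of potassium, pH and water handling, 7 were higher, and the sodium pump subunit gene Atp1b2 had 4588 ± 647 and 7630 ± 2924. The connexin list differed, with 1 of 5 higher and a median of -0.31. It includes the oligodendrocyte connexin gene Gjb1, at 2916 ± 547 in ctl and 2182 ± 441 in dKO. The remaining lists had medians of 0.35 over 3 filament genes (Synm 3245 ± 135 and 3671 ± 187) and 0.15 over 9 transcription factors (Lhx2 165 ± 20.3 and 359 ± 229).

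Genes linked to astrocyte reactivity were considered apart. In OPCs, 10 of 12 pan-reactive genes, 10 of 12 genes of the kind induced by lipopolysaccharide and 8 of 8 tested genes of the kind induced by ischaemia were higher in dKO, with medians of 0.41, 0.41 and 0.49. edgeR called 0 of these genes and DESeq2 called 1, the chaperone gene Fkbp5, where they called 0.00576% and 1.72% of all genes. The groups were apart for 1, the prostaglandin synthase gene Ptgs2, at 234 ± 22.2 and 400 ± 140, where 7.4% of all genes were higher in this way. Without dKO replicate 2 the groups did not overlap for 6, 10 and 5 genes of the lists, where 15.4% of all genes were higher in this way. The medians were then 0.57, 0.65 and 0.73, edgeR called 0, 1 and 1 of the genes, where it called 1.15% of all genes, and DESeq2 called 2, 5 and 3, where it called 3.53%. In dKO replicates 1, 2 and 3 the pan-reactive list summed to 867, 547 and 1046 CPM. The lipopolysaccharide list summed to 490, 313 and 581 CPM and the ischaemia list to 306, 216 and 364. Each sum was thus lowest of its group in dKO replicate 2, the library with the highest astrocyte genes. Which cells these transcripts came from was not tested.

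Markers of other cell types moved alongside in the OPC libraries. Of 12 microglia markers, 12 were higher in dKO, with a median log2 fold change of 1.33. DESeq2 called 10, where it called 1.72% of all genes. Every dKO library was above every ctl library for 8, where 7.4% of all genes were. The sums of the 12 markers were 282 to 341 CPM in ctl and 375 to 1140 in dKO. The complement gene C1qa had 459 ± 71.5 in ctl and 1358 ± 582 in dKO. The microglial sum was 880, 375 and 1140 CPM in dKO replicates 1, 2 and 3, so the library with the highest astrocyte genes had the lowest microglial sum of its group. Of 12 mature oligodendrocyte markers, 10 were lower, with a median of -0.43, and 4 were lower at an unadjusted p under 0.05, beside 11.5% of all genes. DESeq2 called 1, the aspartoacylase gene Aspa, at 4915 ± 465 and 2973 ± 432. The sums of the 12 markers overlapped (68038 to 80412 CPM in ctl and 50159 to 86640 in dKO). Without dKO replicate 1, 10 of 12 were below ctl in both remaining dKO libraries, where 15.6% of all genes were. Without dKO replicate 2, 4 of 12 were, where 15.1% of all genes were. Sums of 12 endothelial markers (1577 to 2295 and 1306 to 3569), 11 mural markers (747 to 1065 and 681 to 1409), 12 OPC markers (1754 to 2838 and 1658 to 3286), 12 neuron markers (122.6 to 143.6 and 131.6 to 172.3) and 10 ependymal and choroid plexus markers (18208 to 38293 and 25209 to 26449) overlapped between groups. Without dKO replicate 2, 11 of 12 endothelial and 7 of 11 mural markers were above ctl in both remaining dKO libraries, where 15.4% of all genes were, with medians of 0.62 and 0.75, and DESeq2 called 5 and 2, where it called 3.53%. Without that library 12 of 12 microglia markers did not overlap and edgeR called 11, where it called 1.15%. None of these markers was at 0 in all libraries, and their part in the result was not tested.

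**Figure D2:**
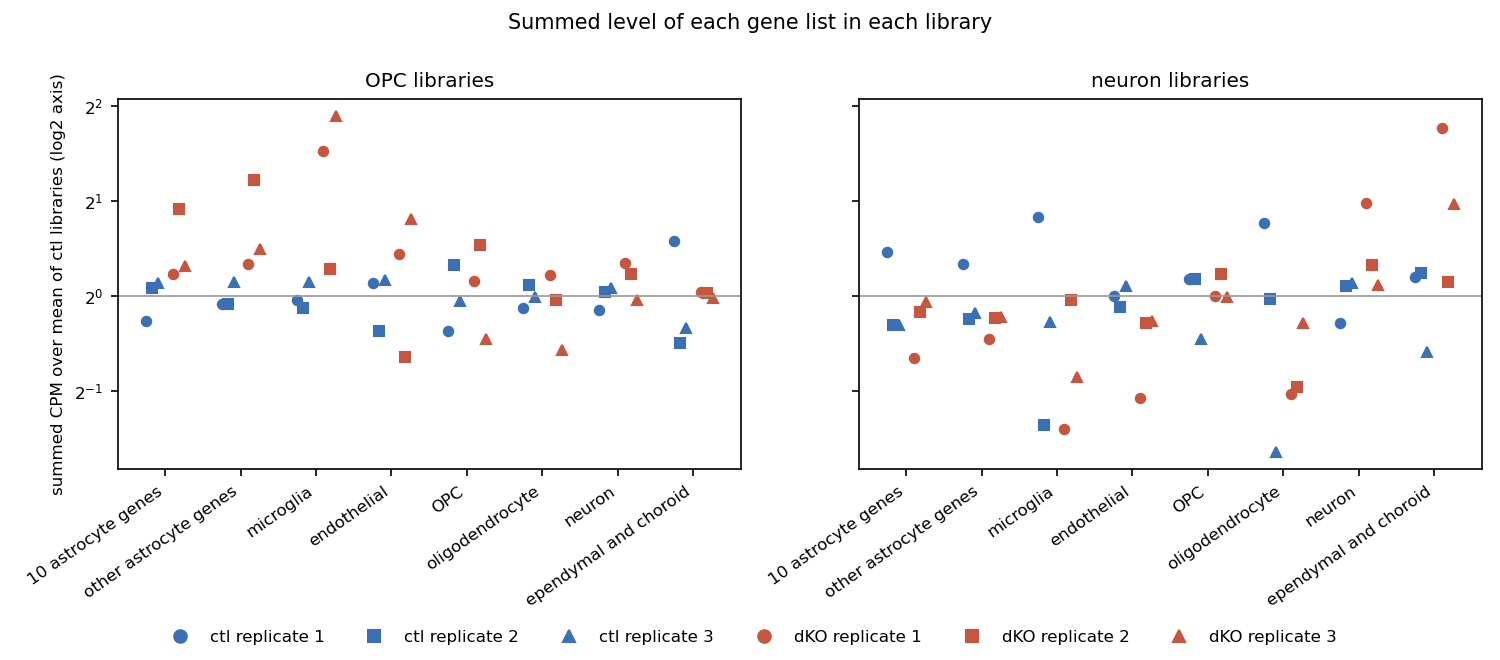
Summed CPM of each gene list in each library, divided by the mean of the ctl libraries of that cell type (y axis, log2 scale), for the 10 astrocyte genes, 30 other astrocyte genes and markers of other cell types (x axis). In OPC libraries all dKO points lie above all ctl points for both astrocyte lists and for microglia, although for the 10 genes without Glul dKO replicate 1 (1618 CPM) was below ctl replicate 3 (1712), and in neuron libraries ctl replicate 1 (blue circle) is highest for both astrocyte lists, microglia and oligodendrocytes.

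Among tested genes outside all lists, those whose levels over the 6 OPC libraries were most like the mean profile of the 10 members were Gm6145, a long noncoding RNA, the receptor tyrosine kinase gene Axl, the retinaldehyde dehydrogenase gene Aldh1a1, Nmnat2, an enzyme gene of NAD synthesis, and Chml, with Pearson correlations of 0.995 to 0.997. The points share library and depth, and no test was made. Axl had 839, 898 and 1082 in ctl and 1115, 1799 and 1405 in dKO, and Aldh1a1 had 623, 718 and 1056 in ctl and 1035, 2233 and 1384 in dKO, so dKO replicate 2 was highest here too. Among the members, Slc4a4 followed the mean profile most closely at 0.99, and Sox9 (0.49) and Glul (0.59) least.

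In neurons, 3 of the 10 genes were higher in dKO (Sox9, Aldh1l1 and Slc4a4) and 7 lower, with a median log2 fold change of -0.31, against 0.0075 over all genes tested. edgeR called 0 of 10 members and DESeq2 0 of 10, where they called 0% and 0.613% of all genes. An unadjusted p under 0.05 was found for 3 members, Sox9 higher and Gfap and Gja1 lower, where 9% of all genes had one. The same genes were those whose groups did not overlap, with Sox9 above ctl in every dKO library, as were 7.5% of all genes, and Gfap and Gja1 below, as were 7.82%. Without ctl replicate 1, 4 members were above ctl in every dKO library and 2 below, where 11.3% and 11.6% of all genes were. That library had the highest value for 8 of the 10 genes, and dKO replicate 1 the lowest for 6.

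**Figure D3:**
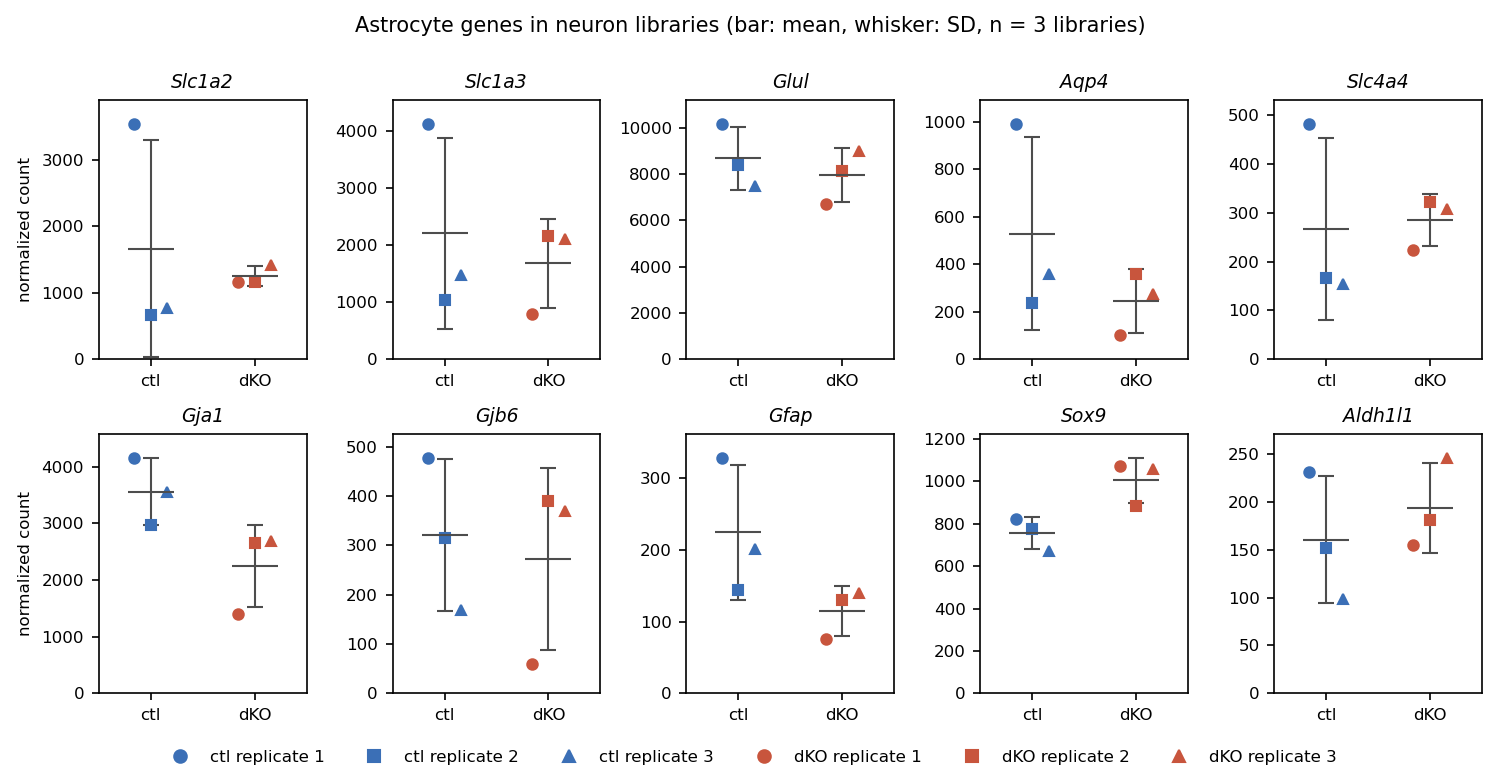
Normalized counts (y axis, from 0) of the 10 astrocyte genes in the 3 ctl and 3 dKO neuron libraries (x axis), drawn as for OPCs with a bar for the mean and whiskers for the SD. The ctl replicate 1 library (blue circle) is the highest point in 8 of the 10 panels, and the groups are separate for Gja1, Gfap and Sox9.

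Slc1a2 had 3550, 669 and 774 in ctl neurons and 1161, 1167 and 1426 in dKO neurons. The ctl group spanned all dKO values, with ctl replicate 1 far above and the other two ctl libraries below. Its log2 fold change was -0.41 ± 0.57 (SE), with an edgeR adjusted p of 0.85. Slc1a3 had 4137, 1036 and 1472 in ctl and 786, 2160 and 2111 in dKO, again with ctl replicate 1 highest and overlapping groups, for a log2 fold change of -0.39 ± 0.54 (edgeR adjusted p = 0.85). Glul had 10182, 8381 and 7467 in ctl and 6705, 8154 and 9013 in dKO, with a log2 fold change of -0.12 ± 0.18 (edgeR adjusted p = 0.86).

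Aqp4 had 991, 236 and 358 in ctl neurons and 99.9, 361 and 274 in dKO neurons, so its ends were set by replicate 1 of each group. A log2 fold change of -1.11 ± 0.58 had an edgeR adjusted p of 0.60, and the value was -0.28 ± 0.49 without ctl replicate 1. Slc4a4 had 482, 166 and 153 in ctl and 224, 322 and 308 in dKO, with no clear difference (log2 fold change 0.09 ± 0.43, edgeR adjusted p = 0.96). Gja1 had 4156, 2966 and 3557 in ctl and 1404, 2651 and 2689 in dKO. Every dKO library was below every ctl library, the closest values being 2966 and 2689. On the log2 scale the difference was -0.66 ± 0.26 (edgeR adjusted p = 0.52). Gjb6 had 477, 314 and 169 in ctl and 59.8, 389 and 370 in dKO, a wide overlap, with a log2 fold change of -0.23 ± 0.62 (edgeR adjusted p = 0.93).

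Gfap had 328, 144 and 201 in ctl neurons and 75.4, 131 and 139 in dKO neurons. The groups were apart by a narrow margin, between ctl replicate 2 and dKO replicate 3. The log2 fold change was -0.96 ± 0.37 (edgeR adjusted p = 0.52), and without ctl replicate 1 it was -0.58 ± 0.37. Sox9 had 821, 777 and 673 in ctl and 1073, 882 and 1059 in dKO. It was the only member with every dKO library above every ctl library, with a log2 fold change of 0.41 ± 0.15 (edgeR adjusted p = 0.52). Aldh1l1 had 231, 152 and 98.6 in ctl and 155, 181 and 246 in dKO, with a log2 fold change of 0.27 ± 0.34 (edgeR adjusted p = 0.83).

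Because Y-linked counts split the neuron libraries, the difference was also taken within each kind. Between the libraries with Y-linked counts, 1 of each group, 9 genes were lower in dKO replicate 1 than in ctl replicate 1, from a log2 ratio of -0.57 for Aldh1l1 to -3.31 for Aqp4, and Sox9 was higher at 0.39. With 1 library a side this has no replicate check. Among the libraries without Y-linked counts, 2 against 2, 8 genes were higher in dKO with a median log2 fold change of 0.53, Slc4a4 at 0.98 ± 0.23, Slc1a2 at 0.85 ± 0.16 and Slc1a3 at 0.77 ± 0.17, and edgeR called 0 of them. Gfap (-0.36 ± 0.31) and Gja1 (-0.29 ± 0.13) were lower and Sox9 was at 0.42 ± 0.16 in this subset, directions that are fixed for these 3 genes because their groups did not overlap over all 6 libraries. For the others, Aldh1l1, Slc1a2, Slc1a3, Slc4a4, Gjb6, Glul and Aqp4, the signs differed between the kinds of library. Fitted over all 6 libraries with Y-linked counts as a term, the median was -0.16. Without ctl replicate 1 it was 0.30, with 7 genes higher. The libraries with Y-linked counts are ctl replicate 1, highest for 8 of the 10 genes, and dKO replicate 1, lowest for 6. The lower average of the astrocyte genes in dKO neurons was found between these libraries and not among the others. Because the split sets these extremes apart, it cannot tell Y-linked counts from other traits of these libraries.

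The 78 other astrocyte genes behaved likewise, with 29 higher and 49 lower in dKO neurons, a median of -0.19, and 0 calls by edgeR or DESeq2, with 6 higher and 3 lower at an unadjusted p under 0.05, where 9% of all genes had one. Without ctl replicate 1, 57 of 78 were higher, with a median of 0.23. The sums of the 30 surface and secreted products were 7025, 4704 and 4911 CPM in ctl and 4051, 4731 and 4752 in dKO, and those of the 10 members 1623, 950 and 955 in ctl and 752, 1050 and 1129 in dKO. In both, ctl replicate 1 was the highest and dKO replicate 1 the lowest. Among the named genes of these lists, the channel gene Trpm3, also abundant in choroid plexus, had 2182 ± 527 in ctl and 4110 ± 1656 in dKO (SD, n = 3) and the transcription factor gene Nfix 1326 ± 256 and 1970 ± 423. Neither was called by either tool. Both were higher in dKO, whereas 49 of the 78 genes were lower, 3 of them at an unadjusted p under 0.05.

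Genes linked to reactivity were also followed in neurons. Of 11 tested genes of the kind induced by lipopolysaccharide, 8 were lower, with a median of -0.54. DESeq2 called 5, where it called 0.613% of all genes, while edgeR called 0. Every dKO library was below every ctl library for 7, where 7.82% of all genes were. Without ctl replicate 1 the median was -0.52 and 7 were below in this way, where 11.6% of all genes were. The list summed to 2642 to 5959 CPM in ctl and 1858 to 1966 in dKO. The interferon-inducible GTPase gene Iigp1 had 6514 ± 4665 in ctl and 1637 ± 135 in dKO, Gbp2 had 5127 ± 2674 and 1908 ± 280, and the immunoproteasome gene Psmb8 had 2426 ± 1247 and 923 ± 154, with DESeq2 adjusted p of 0.0026, 0.0096 and 0.014. Of 11 pan-reactive genes 9 were lower and of 7 ischaemia-type genes 5, with 0 calls by either tool and 2 of each list lower at an unadjusted p under 0.05, beside the same 9% of all genes. Their medians of -0.45 and -0.13 were -0.20 and -0.08 without ctl replicate 1, with 0 genes at an unadjusted p under 0.05. The chemokine gene Cxcl10 had 499, 11.7 and 50.4 in ctl and 50.9, 18.0 and 5.12 in dKO, with ctl replicate 1 far above the other libraries.

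Other cell types also differed between the neuron libraries. All 12 endothelial markers were lower in dKO, with sums of 24474 to 28557 CPM in ctl and 12630 to 22139 in dKO. The groups did not overlap for 8 of them, where 7.82% of all genes were below ctl in this way. The tight junction gene Cldn5 had 27678 ± 2812 in ctl and 19385 ± 4571 in dKO. edgeR and DESeq2 each called 0 of the 12, and 3 had an unadjusted p under 0.05, where 9% of all genes had one. All 12 oligodendrocyte markers (sums of 795 to 4215 and 1220 to 2037 CPM) and all 12 microglia markers (472 to 2143 and 456 to 1173) were lower in dKO, with overlapping sums. The sums of ctl replicate 1 were the highest of the 6 libraries for both, as they were for the 10 astrocyte genes. Without that library 8 of 12 oligodendrocyte markers and 4 of 12 microglia markers were lower, with medians of -0.07 and 0.057, and the endothelial markers remained lower for 12 of 12, with 9 without overlap, where 11.6% of all genes were below ctl in this way. Ependymal and choroid plexus markers were higher in dKO for 7 of 9 tested, with sums of 9171 to 16318 and 15255 to 46889 CPM and the highest in dKO replicate 1. Their median was 0.96, and DESeq2 called 1, where it called 0.613% of all genes. At an unadjusted p under 0.05 there were 6 higher and 1 lower, beside 9% of all genes. The groups were apart with dKO higher for 3 and lower for 1, beside 7.5% and 7.82% of all genes. Neuron markers were higher for 10 of 12 (614 to 819 and 808 to 1474), and mural sums (684 to 1566 and 921 to 1444) and OPC sums (180 to 279 and 245 to 289) overlapped. No marker was at 0 in all libraries, and the part of these cells in the result was not tested.

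The genes most like the mean profile of the members over the 6 neuron libraries were Gabrg1, a GABA-A receptor subunit gene, Dio2, the deiodinase gene of thyroid hormone activation, Luzp2, B4galt1 and Fat4, with Pearson correlations of 0.98 to 0.99, given as a description. Dio2 had 196, 36.0 and 32.1 in ctl and 26.4, 70.1 and 101 in dKO, and Luzp2 had 1710, 480 and 530 in ctl and 423, 795 and 985 in dKO. Of the members, Slc1a3 (0.96) and Glul (0.95) followed the profile closely and Sox9 (-0.01) did not.

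**Figure D4:**
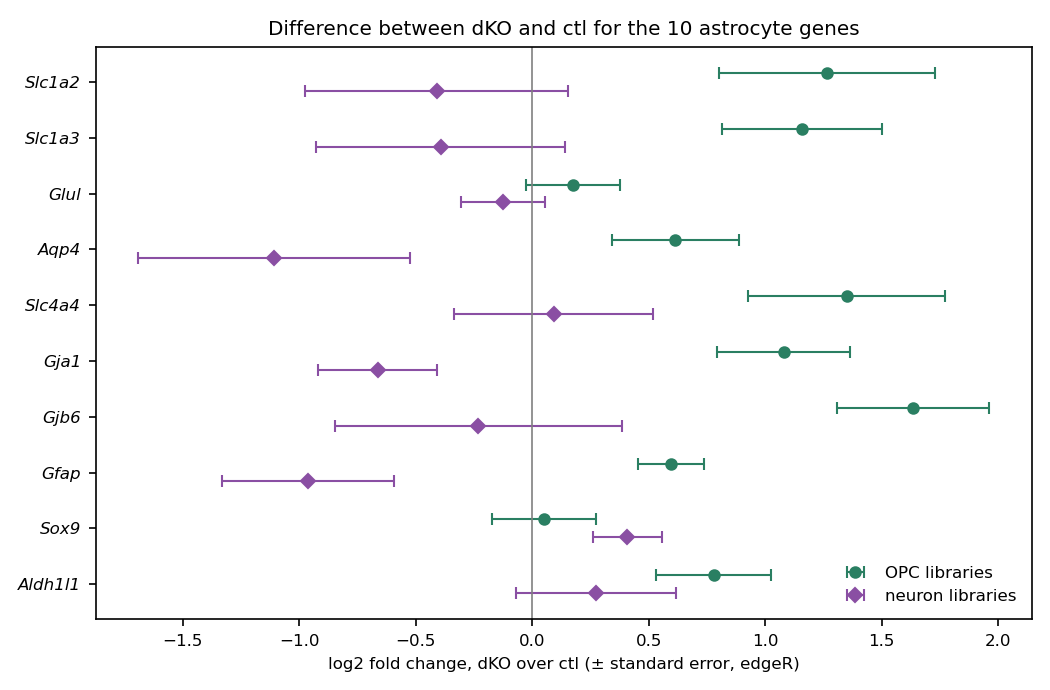
Log2 fold change of dKO over ctl (x axis) with its standard error from edgeR for each of the 10 astrocyte genes (y axis), fitted apart in the OPC (circles) and neuron (diamonds) libraries, n = 3 libraries per group. The OPC values run from 0.05 for Sox9 to 1.64 for Gjb6, and 7 of the neuron values lie below 0.

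Side by side, 7 genes had opposite signs in OPCs and neurons, Slc1a2, Slc1a3, Glul, Aqp4, Gja1, Gjb6 and Gfap, and 3, Slc4a4, Sox9 and Aldh1l1, were higher in dKO in both. Without ctl replicate 1 the neuron differences of Slc1a2, Slc1a3, Gjb6 and Glul were above 0 (0.80, 0.43, 0.17 and 0.0066), which left Aqp4, Gja1 and Gfap with opposite signs. Gfap alone had groups that did not overlap in either cell type, higher in OPCs (0.60 ± 0.14) and lower in neurons (-0.96 ± 0.37). The difference between cell types was not tested.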

How the data were processed

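RNA-seq was performed on 12 libraries, 3 each of ctl and dKO OPCs and neurons from cortex, each from 2 pooled mice. The OPC table holds whole read counts for Ensembl genes as deposited, and the FPKM values the authors deposited beside them served only to compare levels between genes. The neuron table holds estimated counts for RefSeq transcripts as deposited, and the TPM values the authors deposited beside them served for levels and transcript shares. The methods name HISAT2, the build GRCm38 and featureCounts, the submitters' processing notes name the build mm39, and how the neuron estimates were made is not given in the sources used here. Normalized columns, averaged columns (18 columns of per-library values in all) and the authors' fold changes and p-values were not used.

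Neuron estimates were summed over the transcripts of a gene and rounded to whole numbers. Of 17918 gene identifiers 17794 were matched to a symbol in the RefSeq table, and the rest held 0.0441% of the counts. Each cell type was fitted alone. The test was the quasi-likelihood F test of edgeR 4.0.16 in R 4.3.3 with genotype as its term, on genes whose TMM-normalized counts averaged 10 or more, with Benjamini-Hochberg adjustment over all genes tested. A standard error is the log2 fold change over the square root of its F value. DESeq2 1.42.0 was an alternative. CPM are counts over effective library sizes. The code was tested on simulated data. The biological coefficient of variation was 20.5% in OPCs and 27.7% in neurons. Replicates differed by a chi-square of at least 15.87 per gene, and none was counted as a duplicate. Each library pools its own mice as far as the methods state, and p-values measure the spread between these libraries. Promoter windows came from RefSeq (GRCm38.p6), and profiles were compared on log2(normalized count + 2).

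Members and lists were chosen with earlier results of these data known. All 10 members are named, with up to 3 genes per other list with the smallest p in either cell type, and the 5 genes outside all lists most correlated with the members. The choice to name Fkbp5, Xist and the Y-linked group came after seeing their values. A few genes that this rule would name are not reported here.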

Additional observations from a re-analysis of the deposited data

Results flagged for a closer look

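Gfap was singled out because every dKO library was above every ctl library in OPCs, with a log2 fold change of 0.60, and every dKO library was below every ctl library in neurons, with a log2 fold change of -0.96. The neuron value was -0.58 without ctl replicate 1 and -0.36 among the libraries without Y-linked counts. The difference between the cell types was not tested, since the tables were counted in different ways. Neither value passed edgeR's adjusted threshold, and DESeq2 called the OPC value and not the neuron value.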

How the results depend on the processing

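Of the 10 members in OPCs, 0 passed with edgeR and with RLE normalization, 4 with DESeq2, 1 without the filter on low counts, 1 with the replicate block and 7 at an unadjusted p under 0.05, while over all genes 1, 1, 299, 87 and 25 passed under the first 5 of these. Leaving out 1 library and fitting with edgeR gave 0 members called, 1 to 199 genes and 4 to 8 members without overlap in OPCs, with 199 genes without dKO replicate 2 and 2 without dKO replicate 3. DESeq2 without dKO replicate 2 called 608 genes and 1 member. The OPC median stayed between 0.56 and 1.17. Sox9 in OPCs ranged from -0.14 to 0.21 and turned to -0.14 without ctl replicate 2, to -0.12 without dKO replicate 2 with edgeR and to -0.13 with DESeq2.

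In neurons 0 members passed under every alternative on the adjusted scale and 3 at an unadjusted p under 0.05, and over all genes 88 passed with DESeq2 and 0 otherwise. The groups did not overlap for 6 members without ctl replicate 1, where 11.3% of all genes were higher and 11.6% lower in this way. Over all 6 libraries these shares were 7.5% and 7.82%. Leaving out 1 library gave 3 to 6 members without overlap and a median of -0.58 to 0.30. Values ranged from -1.49 to -0.28 for Aqp4, -1.20 to -0.58 for Gfap, -0.79 to 0.80 for Slc1a2, -0.73 to 0.43 for Slc1a3, -0.57 to 0.24 for Gjb6, -0.22 to 0.0066 for Glul and -0.19 to 0.83 for Slc4a4. Without ctl replicate 1 the values turned to 0.80 for Slc1a2, 0.43 for Slc1a3, 0.17 for Gjb6 and 0.0066 for Glul. Slc4a4 turned to -0.16 without ctl replicate 2, -0.19 without ctl replicate 3 and -0.0039 without dKO replicate 2, and Gjb6 to 0.24 without dKO replicate 1. Slc1a2 became 0.056 with the replicate block and 0.056 when Y-linked counts were a term. Among the libraries without Y-linked counts the median was 0.53, Aqp4 was 0.094, Slc1a2 0.85, Slc1a3 0.77, Gjb6 0.65 and Glul 0.11. The cause of these changes was not tested.

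The replicate numbers shared by the groups were not taken as pairs. The deviations of same-numbered libraries correlated at -0.11, 0.15 and 0.12 in OPCs and at 0.17, -0.07 and -0.07 in neurons, with 2 and 1 of the 3 ctl libraries closest to their own number. The replicate block called 25 genes in OPCs and 0 in neurons. The unadjusted threshold, the fits by Y-linked counts and DESeq2 without dKO replicate 2 were added after seeing the data. With 3 libraries a group, the standard errors in neurons ran from 0.15 for Sox9 to 0.62 for Gjb6.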
